A study of Mus musculus with 6 samples.

Results

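The 5 genes described here, Hecw1, Lrrc39, Btn1a1, Glt28d2 and Fam160a1, were picked among 19937 measured mouse genes because their RNA was more than 3-fold higher in fetal livers lacking Klf1. RNA was measured in whole livers of FVB/NJ embryos at embryonic day 13.5, bred from Klf1 +/- mice, with 3 wildtype and 3 Klf1-/- livers on 1 Affymetrix gene array each. The livers were dissociated into single cells before extraction, no cell type was selected, and the labels give neither the design of the Klf1 allele nor the litters of the embryos. Since separate litters are not stated, p-values measure the spread between these 6 samples. Levels are log2 of the deposited intensity, a change is the knockout mean minus the wildtype mean on that scale, and ± after a change is the standard error of the limma fit. A gene is called when its limma p, adjusted by Benjamini-Hochberg over all 19937 genes, is under 0.05; n = 3 per group throughout.

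Klf1 is a zinc finger transcription factor of red cell precursors that binds CACC-type sequences and switches on globin, membrane and heme genes. At this stage most red cells of the embryo are made in the liver. None of the 5 genes is a classical red cell gene. Hecw1 encodes a ubiquitin ligase of the NEDD4 type, with HECT, C2 and WW domains, known mainly from neurons. Lrrc39, also called Myomasp, encodes a leucine-rich repeat protein of the sarcomere M-band in heart and skeletal muscle. Btn1a1 encodes butyrophilin, a membrane protein of the immunoglobulin superfamily that coats milk fat globules. Glt28d2 is named for its glycosyltransferase domain and carries the older name Glt28d1l, after Glt28d1, which is now Alg13, a subunit of an enzyme of N-glycan synthesis. Fam160a1 encodes a relative of the FHF complex subunits, which join Hook adaptors and endosomes to the dynein motor.

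Of the 5 genes, 3 lie on chromosome 3 and 2 on chromosome 13. Fam160a1 and Glt28d2 are neighbours: in the order of the GRCm38.p6 gene table, 2 gene models lie between them, the noncoding RNA gene Gm40082 and the pseudogene Gm19068, and 0 of the 2 had a probe set of its own. Hecw1 and Btn1a1 share chromosome 13 with 335 gene models between them, and Lrrc39 lies 874 gene models from Glt28d2. The RefSeq promoter table held windows for Lrrc39, Glt28d2 and Fam160a1. The 250 bases before the annotated start of each are shown to let the neighbours be compared and to show which letters related to Klf1, Gata factors or the hypoxia response they hold. Capitals mark every match, on either strand, to CCNCNCCC (the CACC-type motif, which also takes in GC boxes of other factors), to GATAA (the core bound by Gata factors) and to ACGTG (the core of the hypoxia response element, also part of some E-boxes). Windows are from GRCm38.p6 and read 5′ to 3′ on the gene's strand: Lrrc39 at chr3:116562733-116562982 on the plus strand, Glt28d2 at chr3:85887519-85887768 and Fam160a1 at chr3:85746210-85746459, both on the minus strand.
Lrrc39: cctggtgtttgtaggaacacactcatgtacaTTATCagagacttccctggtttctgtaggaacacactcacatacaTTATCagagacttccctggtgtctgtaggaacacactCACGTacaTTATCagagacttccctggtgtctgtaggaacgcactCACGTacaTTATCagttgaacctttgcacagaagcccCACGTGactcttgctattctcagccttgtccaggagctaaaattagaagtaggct
Glt28d2: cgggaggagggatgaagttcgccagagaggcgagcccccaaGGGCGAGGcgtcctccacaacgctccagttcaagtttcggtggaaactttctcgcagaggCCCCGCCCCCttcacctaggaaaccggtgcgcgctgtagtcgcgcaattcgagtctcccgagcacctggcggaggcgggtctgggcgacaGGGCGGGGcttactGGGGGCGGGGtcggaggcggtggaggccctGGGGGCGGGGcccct
Fam160a1: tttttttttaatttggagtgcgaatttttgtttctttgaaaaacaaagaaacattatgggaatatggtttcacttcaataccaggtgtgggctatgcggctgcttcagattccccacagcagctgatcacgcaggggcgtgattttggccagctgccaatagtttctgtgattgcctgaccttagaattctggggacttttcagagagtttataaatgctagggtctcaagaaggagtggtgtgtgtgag

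The neighbouring pair had unlike windows. That of Glt28d2 held 69.2% G and C, 24 CpG pairs and 8 matches to CCNCNCCC, some of which overlap each other. That of Fam160a1 held 42.8% G and C, 4 CpG pairs and 0 matches to any of the 3 motifs, which says only that these letters are not in this window. Over all 32851 windows of that length in the table, 45.9% held CCNCNCCC at least once and 1.98% held it 8 times or more. The medians over these windows were 52.4% G and C and 6 CpG pairs. The share of 1.98% is not limited to windows as rich in G and C as that of Glt28d2. The window of Lrrc39 is built of a repeat: an exact stretch of 36 bases occurs in 2 copies set 45 bases apart, and the letters TTATC return at bases -219, -174, -129 and -84 from the start. On the opposite strand they read GATAA. That core occurred in 22.6% of all windows, and 4 times or more in 0.119%. The same window matched ACGTG 4 times, 2 of these on both strands of one CACGTG, a count reached in 0.502% of windows, while 16.6% held it at least once. A match is a description of letters, and no binding was measured.

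The ligase gene Hecw1 read 5.93, 5.58 and 5.62 on wildtype arrays 1, 2 and 3 and 8.96, 8.83 and 8.73 on the knockout arrays. The wildtype values are low and close together, the knockout values are high, and the lowest knockout array stood 2.80 above the highest wildtype array. The change was 3.13 ± 0.11, an 8.74-fold rise. With no offset before log2 it was the first of 19937 genes by size; with the offset of 16, an alternative that shrinks changes of dim genes, it fell to 2.79, below Car1 at 2.93.

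Lrrc39, the M-band gene, read 7.07, 6.51 and 7.09 in wildtype and 9.79, 9.80 and 9.71 in knockout livers. Wildtype replicate 2 was the lowest, and the knockout arrays lay within 0.094 of each other. The change was 2.87 ± 0.14, or 7.33-fold, the third by size with or without the offset. It ranked 2 with array quality weights or without wildtype replicate 3.

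Btn1a1 read 6.76, 6.75 and 7.06 in wildtype livers and 9.57, 9.50 and 9.62 in knockout livers. The groups lay 2.44 apart at their nearest arrays. Its change of 2.70 ± 0.10 was a 6.51-fold rise.

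The neighbouring pair on chromosome 3 rose by different amounts. Glt28d2 read 5.45, 4.97 and 5.56 in wildtype and 7.83, 8.16 and 8.08 in knockout livers, a change of 2.70 ± 0.15 or 6.48-fold. Fam160a1 read 6.43, 6.37 and 6.44 against 8.19, 8.27 and 8.18, a change of 1.80 ± 0.07 or 3.49-fold. Fam160a1 had the tightest arrays of the 5 genes, within 0.071 in wildtype and 0.093 in knockout, while Glt28d2 spread over 0.59 and 0.34.

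**Figure D1:**
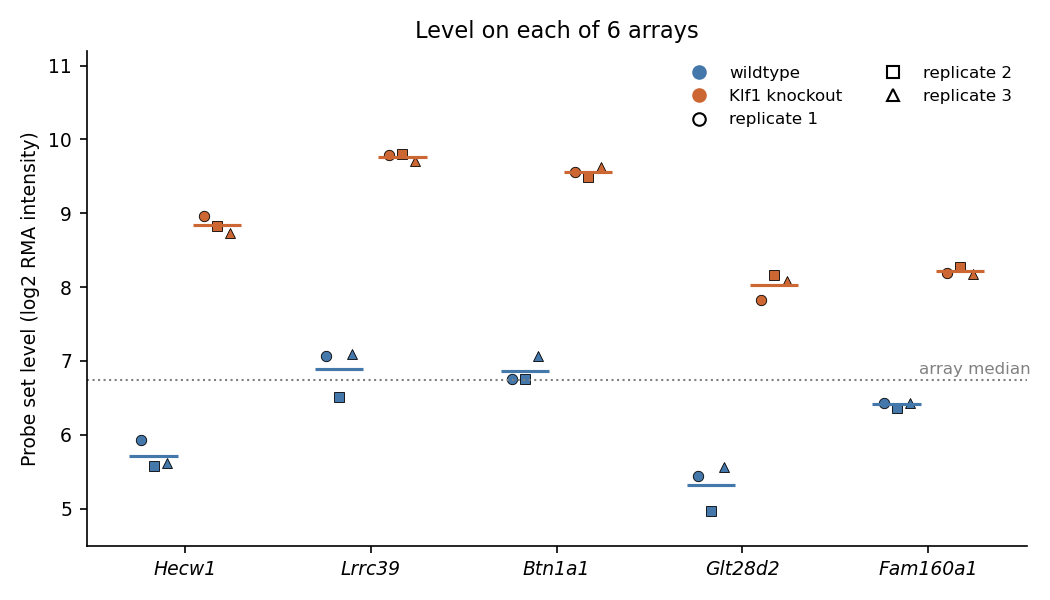
Level of each of the 5 genes on each array, as log2 RMA intensity; symbols mark the replicate number, horizontal bars the group means (n = 3), and the dotted line the mean of the array medians. In every gene the 3 knockout arrays lie above the 3 wildtype arrays, by at least 1.74 in Fam160a1 and by 2.80 in Hecw1; levels of different probe sets are not to be compared with each other.

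The groups did not overlap in any of the 5 genes. Among all genes 19% were higher in knockout with no overlap, and 0.1% were more than 3-fold higher. These 5 were selected on the same 6 arrays, so the values are a description and no test of them is given. Each gene was read by 1 single-gene probe set, and no probe set shared between several genes named any of them. In wildtype livers the probe sets were dim to middling on the array: the share of the 34760 probe sets reading lower ran from 21.1 to 30.1% for Glt28d2, from 30.4 to 37% for Hecw1, from 43.7 to 45.6% for Fam160a1, from 46.3 to 55.6% for Lrrc39 and from 50.3 to 54.4% for Btn1a1. On knockout arrays these shares were 65.4 to 68.8%, 75.2 to 78.6%, 68.6 to 70.1%, 85.5 to 86.7% and 83.5 to 84.7%. Near the bottom of the range an array compresses changes. Adding 16 to each intensity before log2 shrinks changes of dim genes by arithmetic and does not measure that compression. It lowered the change of Glt28d2 to 2.29 and that of Hecw1 to 2.79.

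Wildtype replicate 2 was the lowest wildtype array in all 5 genes, against 25.8% of all genes and 4 of the other 15 genes above 3-fold. In Btn1a1, Hecw1 and Fam160a1 the next wildtype array lay close: 6.75 against 6.76, 5.58 against 5.62 and 6.37 against 6.43. The margin was wider in Lrrc39, 6.51 against 7.07, and in Glt28d2, 4.97 against 5.45. The 5 were picked on these same arrays, so this count is no test of the array. Without wildtype replicate 2 the changes were 3.06 in Hecw1, 2.68 in Lrrc39, 2.65 in Btn1a1, 2.52 in Glt28d2 and 1.78 in Fam160a1. Knockout replicate 2 was the highest knockout array in 3 of the 5 genes, against 31.9% of all genes, and replicates 1 and 3 in 1 each. Knockout replicate 3 was the lowest knockout array in 3 of them, against 27.4% of all genes. Whether wildtype replicate 2 differs from the other wildtype arrays in these genes was not tested.

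The 3-fold limit was passed by 20 genes. Fam160a1, of rank 12 by size, was the nearest of the 5 to it, followed by Tcp11l1 at 3.40-fold and Hesx1 at 3.37-fold. Just inside the limit stood Slc44a5 at 3.001-fold, Cox6b2 at 3.16-fold and Mc2r at 3.18-fold, and just outside Ero1a at 2.92-fold, Lrmda at 2.86-fold and Foxh1 at 2.85-fold. The remaining genes above 3-fold were Car1, Alox5, Egln3, Cda, Bnip3, Ciart, Hbb-bh1, Tmed8, Srxn1 and Ncoa3, with rises from 3.19-fold in Ncoa3 to 7.73-fold in Car1.

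**Figure D2:**
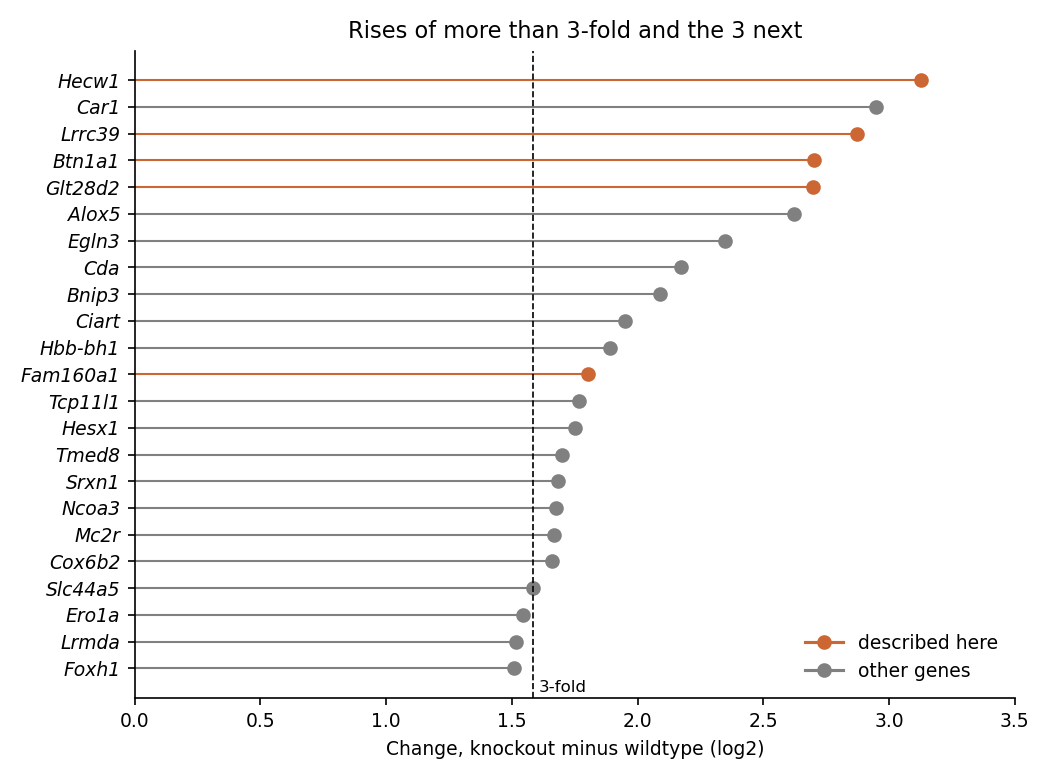
Change (knockout minus wildtype, log2) of the 20 genes that were more than 3-fold higher in knockout and of the next 3; orange marks the 5 genes described here and the dashed line the 3-fold limit. With all 6 arrays and no alternative setting Hecw1 stands first with 3.13, Lrrc39 ranks 3, Btn1a1 ranks 4 and Glt28d2 ranks 5. Fam160a1 ranks 12 with 1.80. These ranks shift with the setting: Btn1a1 ranks 6 without wildtype replicate 1, and Fam160a1 ranks 15 without wildtype replicate 2.

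To find the genes with the most similar values, the 6 values of each gene were taken less its own wildtype mean, and the root mean square difference from each of the 5 genes was computed. Glt28d2 and Lrrc39 were each other's nearest gene, 0.171 apart. The nearest to Btn1a1 was Alox5, the lipoxygenase gene, at 0.162, and the nearest to Hecw1 was Car1, a carbonic anhydrase gene, at 0.197. Fam160a1 lay nearest to Srxn1, which encodes an enzyme that repairs oxidised peroxiredoxins, at 0.0949, then to Tcp11l1 at 0.1001 and Hesx1 at 0.104. Its physical neighbour Glt28d2 was not among its 3 nearest. Next in order came Lrrc39 (0.243) and Btn1a1 (0.360) for Hecw1, Btn1a1 (0.211) and Alox5 (0.241) for Lrrc39, Glt28d2 (0.179) and Lrrc39 (0.211) for Btn1a1, and Btn1a1 (0.179) and Alox5 (0.210) for Glt28d2. The measure is over 6 arrays in 2 groups and mostly reflects the size of the rise.

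The genes around the 5 rises moved far less. Since the 5 were picked for rises that 0.1% of all genes reach, smaller changes in other genes follow from that choice. Of the 40 different genes among the 5 nearest measured ones on each side of each gene, 8 were called higher and 3 lower, with a median change of 0.06; among all genes 10.8% were called higher and 8.26% lower (19.1% in all), with a median of -0.02. No neighbour outside the 5 changed by more than 0.61. The count of called neighbours fell from 11 to 7 without wildtype replicate 2, knockout replicate 1 or knockout replicate 2. With no moderation of the variances 3 stayed called, Tbce, Cdc14a and Frrs1.

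On chromosome 3 the measured genes beyond Glt28d2 were not called, while 3 of the 5 before Fam160a1 rose, against 10.8% of all genes. With no moderation none of the 3 stayed called. Sh3d19, an SH3 domain gene next to Glt28d2, read 8.71, 8.64 and 8.55 in wildtype and 8.65, 8.69 and 8.71 in knockout livers, a change of 0.05 ± 0.08 (limma adjusted p = 0.694). The wildtype and knockout arrays overlap, and the 4 measured genes beyond Sh3d19, Prss48, Rps3a1, Snord73a and Snord73b, were not called. On the other side Gatb, which encodes a subunit of a mitochondrial amidotransferase and lies next to Fam160a1, read 7.98, 7.76 and 7.60 in wildtype and 8.27, 8.51 and 8.39 in knockout. It rose by 0.61 ± 0.11 (limma adjusted p = 0.00268), and remained called with any 1 array left out. Arfip1, 5 measured genes away, rose by 0.58 ± 0.11 (limma adjusted p = 0.00322). Tmem154 rose by 0.30 ± 0.09 (limma adjusted p = 0.0391), a call lost when wildtype replicate 1, wildtype replicate 2, knockout replicate 1 or knockout replicate 2 was left out, and Fbxw7 and Tigd4 in between were not called. Overlap of the annotated gene models of Glt28d2 and Fam160a1 was not examined. Whether RNA of one runs into the other was not tested, since the array values carry no read positions.

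Around Hecw1, 3 of 10 neighbours rose, against 10.8% of all genes, all on the same side. With no moderation only Tbce of the 3 stayed called. Arid4b, a chromatin gene and the nearest, rose by 0.39 ± 0.09 (limma adjusted p = 0.0119; 0.05 without wildtype replicate 2). Ggps1, of isoprenoid synthesis, rose by 0.33 ± 0.09, a call lost when wildtype replicate 2, wildtype replicate 3, knockout replicate 1 or knockout replicate 2 was left out. The tubulin folding gene Tbce rose by 0.38 ± 0.08 (limma adjusted p = 0.00531) and was called with any 1 array left out. Mrpl32, nearest on the other side, was at 0.20 ± 0.11 (limma adjusted p = 0.222).

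Lrrc39 lies between Dbt and Trmt13. Dbt, a subunit gene of branched-chain keto acid breakdown, rose by 0.33 ± 0.09 (limma adjusted p = 0.0306), a call kept only without wildtype replicate 1 among the 6 arrays left out. Trmt13 was at 0.17 ± 0.08 (limma adjusted p = 0.173). Farther out the phosphatase gene Cdc14a rose by 0.57 ± 0.08, while Vcam1, an adhesion gene of island macrophages, fell by 0.43 ± 0.10 and Frrs1, a ferric reductase gene, fell by 0.46 ± 0.08. The fewest called neighbours were those of Btn1a1, 1 of 10, against 19.1% of all genes called in either direction. Its neighbours Abt1, at 0.08 ± 0.10, and Btn2a2, at -0.20 ± 0.09, were not called (limma adjusted p = 0.618 and 0.162), and of 10 neighbours 1 was, the histone gene H4c6, which fell by 0.27 ± 0.08. That call was lost in 5 of the 6 fits with 1 array left out and kept only without wildtype replicate 1. Among the uncalled neighbours of Btn1a1, Vmn1r219, Vmn1r220, Vmn1r222, H3c7 and Btn2a2 had wildtype means of 3.66, 3.75, 3.45, 4.21 and 4.89. These means lie under the lower quartile of every array (5.16 to 5.25), where changes are compressed, so the low count of calls does not show isolation.

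**Figure D3:**
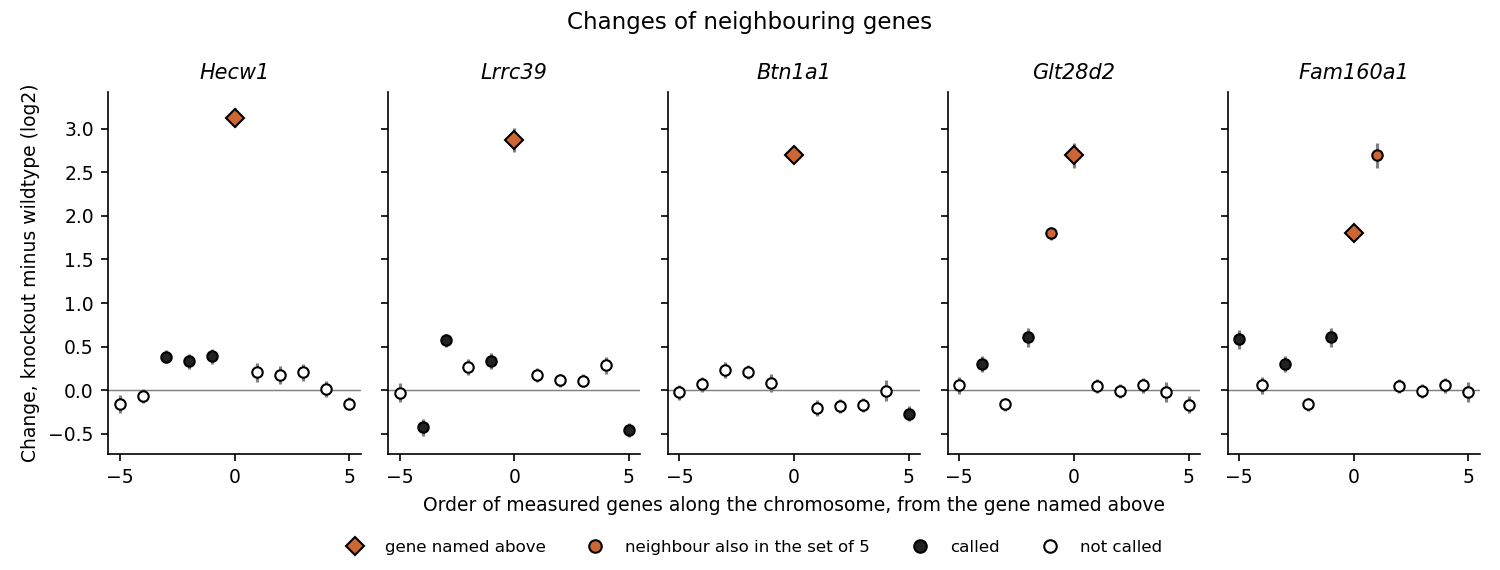
Change (knockout minus wildtype, log2, error bars are standard errors of the fit, n = 3 per group) of each of the 5 genes and of the 5 nearest measured genes on each side, by their order along the chromosome in the GRCm38.p6 gene table; filled points were called at an adjusted p under 0.05. The 5 genes stand at 1.80 to 3.13, and all neighbours outside the 5 lie between -0.46 and 0.61.

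Relatives and partners of the 5 genes were taken from 8 lists, 75 measured genes in all. Of these 12 were called higher and 7 lower, with a median change of 0.01, so the share called higher was 12 of 75 where all genes gave 10.8%. The 19 calls fell to 10 without wildtype replicate 2 and to 7 without knockout replicate 3.

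Among the NEDD4-type ligases, which share the domain plan of Hecw1, 2 of 8 rose and 1 fell, all by little. Among all genes 10.8% were called higher and 8.26% lower. Smurf1 and Smurf2, ligases of TGF-beta signalling, rose by 0.32 ± 0.09 and 0.26 ± 0.08, and Wwp2 fell by 0.31 ± 0.08 (limma adjusted p = 0.0315, 0.0325 and 0.0164). The rises numbered 0 without wildtype replicate 2 or knockout replicate 1 or 3 and 1 without any other array, and 0 with centring on the 75th percentile; Wwp2 was not called without knockout replicate 1 or 3. Hecw2, the closest relative of Hecw1 by name and domains, was at 0.23 ± 0.10 (limma adjusted p = 0.133). Of 4 described substrates of Hecw1, 0 were called, against 19.1% of all genes. The smallest p belonged to Nkx2-1, at -0.22 ± 0.09, and Erbb4, at -0.25 ± 0.14 (limma adjusted p = 0.129 and 0.236). Nkx2-1 was called without knockout replicate 1. Nkx2-1 and Erbb4 were dim, with wildtype means of 5.73 and 5.84 under the median of every array (6.71 to 6.78). RNA levels do not show the amounts of the substrate proteins.

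The M-band list gave the largest rise among the 8 lists. Myom1, encoding myomesin, the protein that cross-links thick filaments at the M-band, read 6.81, 6.90 and 7.27 in wildtype and 8.41, 8.25 and 8.70 in knockout livers. All knockout arrays stood above all wildtype arrays. It rose by 1.46 ± 0.14, or 2.75-fold (limma adjusted p = 3.29e-05), and by 1.34 to 1.60 with 1 array left out. The other 5 genes of this list were not called. Myh7, the slow myosin, was at -0.24, Myom2 at -0.11, Myom3 at -0.08 and Obsl1 at 0.05 (limma adjusted p = 0.0744, 0.584, 0.546 and 0.676). Srf, listed as a muscle and growth transcription factor, was at 0.26 (limma adjusted p = 0.0527). Srf was called without knockout replicate 1, Myh7 without wildtype replicate 1. Of 14 striated muscle markers measured, 0 were called higher and 1, Tnnt2, lower, against 10.8% and 8.26% of all genes. The lower calls numbered 7 without wildtype replicate 1, 2 without knockout replicate 3, and 0 without any other array or with no moderation. Their summed intensity ran from 1318 to 1748 in wildtype and from 1111 to 1474 in knockout livers. Only 3 of the 14 had a mean level at or above the median of all genes. Of 12 short leucine-rich repeat genes related to Lrrc39, 1 was called, Rsu1, a partner of integrin adhesion complexes, which rose by 0.67 ± 0.08 (limma adjusted p = 2.02e-04).

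Among the 7 measured relatives of Btn1a1, 2 fell and 0 rose, against 8.26% and 10.8% of all genes. Ermap, the red cell butyrophilin that carries the Scianna blood group, read 12.99, 13.05 and 13.08 in wildtype and 11.44, 11.48 and 11.42 in knockout livers. Its groups were far apart, and it fell by 1.59 ± 0.07 (limma adjusted p = 1.92e-07). Btnl10 fell by 1.11 ± 0.10 (limma adjusted p = 2.99e-05). Both stayed called with any 1 array left out. The other 5 of the 7 measured relatives were not called, and the median of the 7 was -0.20. Among the 8 milk fat globule genes, the lipid droplet genes Plin2 and Plin3 rose by 0.46 ± 0.08 and 0.69 ± 0.09 (limma adjusted p = 0.00231 and 4.07e-04), and did so with any 1 array left out. Fabp3 and Cidea, a fatty acid binding protein and a lipid droplet gene, fell by 0.49 ± 0.12 and 0.32 ± 0.09 (limma adjusted p = 0.0142 and 0.0303). Cidea was dim, with means of 4.67 in wildtype and 4.35 in knockout livers, and lay under the lower quartile of every array. The count of falls was 0 with no moderation and without wildtype replicate 3, knockout replicate 2 or knockout replicate 3, and 1 without wildtype replicate 1 or 2. Xdh, the binding partner of butyrophilin on the globule, was at -0.05 (limma adjusted p = 0.745). Mammary and secretory epithelium markers had 0 of 8 called. Of these 8, 0 had a mean level at or above the median of all genes, so a lack of calls says little about them.

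Alg13, formerly Glt28d1, after which Glt28d2 had its older name Glt28d1l, was not called. It read 7.79, 7.72 and 7.74 in wildtype and 7.72, 7.82 and 7.92 in knockout livers, with overlapping groups and a change of 0.07 ± 0.08 (limma adjusted p = 0.569). Near-identical copies can share signal on an array, but the sequences of Glt28d2 and Alg13 were not compared here. The rise of 6.48-fold at the probe set of Glt28d2 stood beside the change of 0.07 at that of Alg13. Among the 20 measured genes that build the lipid-linked oligosaccharide of N-glycans, 1 was called, against 19.1% of all genes. It was the polyprenol reductase gene Srd5a3, which rose by 0.48 ± 0.08 (limma adjusted p = 0.00127). Alg14, the membrane anchor of Alg13, was at -0.12 ± 0.11 (limma adjusted p = 0.471).

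Around Fam160a1, 5 of 10 genes of the FHIP family and the FTS-Hook complex were called higher and 2 lower. The Hook genes Hook1 and Hook3, dynein adaptors, rose by 0.40 ± 0.10 and 0.35 ± 0.09, Fam160b1 rose by 0.32 ± 0.07 and Aktip, the FTS subunit, rose by 0.30 ± 0.08 (limma adjusted p = 0.0225, 0.0217, 0.0114 and 0.0173). Hook2 was also called higher, and Rab5a and Rab5c, early endosome GTPase genes, were called lower, against 8.26% of all genes. Each kept its call in 2 of the 6 fits that left out 1 array, and both lost it without wildtype replicate 2, knockout replicate 2 or knockout replicate 3. Against 10.8% of all genes, the 5 of 10 rested on small changes: the rises numbered 0 without knockout replicate 3, 1 without wildtype replicate 2, and 3 with no moderation or when wildtype replicate 3 or knockout replicate 2 was left out. Fam160a2, the nearest paralog of Fam160a1, was at -0.01 ± 0.08 (limma adjusted p = 0.954), and its sign turned with housekeeping centring.

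**Figure D4:**
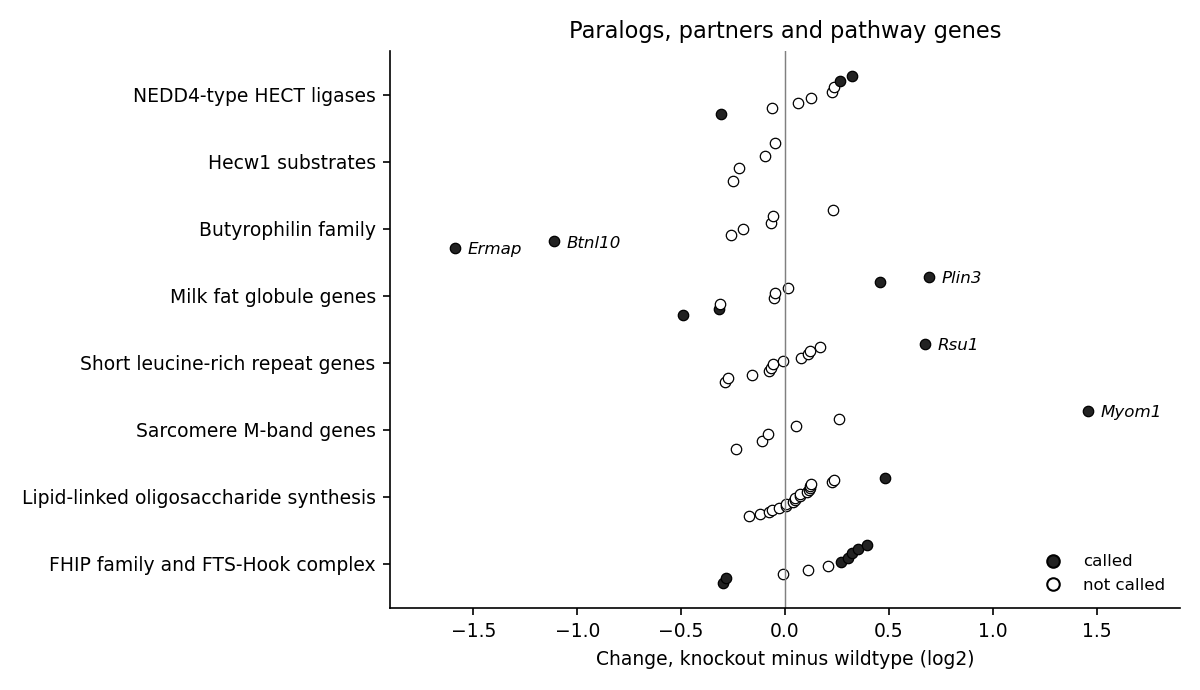
Change (knockout minus wildtype, log2) of each measured gene in the 8 lists of paralogs, partners and pathway genes, 1 row per list and 1 point per gene; filled points were called at an adjusted p under 0.05. Myom1 at 1.46 is the highest and Ermap at -1.59 the lowest, and most other genes lie within 0.5 of 0.

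The array set as a whole gives the setting of these values, with marker counts to be read against 10.8% of all genes called higher and 8.26% lower. Klf1 itself read 10.59, 10.58 and 10.76 in wildtype and 9.05, 9.38 and 9.12 in knockout livers; the altered part of the gene is not given, so signal from outside it may remain. Liver markers were present. Of 12 hepatoblast genes, with Serpina1d standing in for the listed Serpina1a, 0 were called higher and 2 lower. Their summed intensity was 54354 to 65873 in wildtype and 52602 to 55999 in knockout. The 2 lower calls became 0 without wildtype replicate 3, knockout replicate 2 or knockout replicate 3, and with quantile normalization, housekeeping centring or no moderation. Red cell markers fell in 9 of 11, from sums of 61854 to 66883 to 34164 to 36854, and in 8 with no moderation. The 9 include Klf1 itself, the gene altered by design, and Ermap, already given among the relatives of Btn1a1. Megakaryocyte markers rose in 9 of 9, from sums of 18777 to 19779 to 27816 to 35843, stem and progenitor markers in 6 of 11, from 3759 to 3770 to 5043 to 5552, and granulocyte markers in 4 of 10, from 5770 to 6420 to 7314 to 9220. Macrophage markers fell in 8 of 12. With no moderation the calls numbered 3 megakaryocyte, 2 stem and progenitor, 0 granulocyte and 2 macrophage markers. With 1 array left out they numbered 8 to 9, 4 to 6, 2 to 6 and 6 to 9; granulocyte calls were 2 without wildtype replicate 3 or without knockout replicate 3, and stem and progenitor calls 4 without replicate 2 of either group. Neuron markers, of interest for Hecw1, had 0 of 11 called, and 1 lower without knockout replicate 3, with sums of 618 to 658 in wildtype and 565 to 631 in knockout. Of these 11, only 1 had a mean level at or above the median of all genes, so most were too dim to show a change well. Endothelial markers had 1 of 10 higher, mesenchymal 1 of 11 lower, mast cell 1 of 9 higher, and lymphoid 1 of 9 higher and 1 lower. Endothelial rises numbered 5 without wildtype replicate 3, 2 without knockout replicate 1 and 0 without any other array, and mesenchymal falls 4 without wildtype replicate 1 and 0 without knockout replicate 2. The mast cell rise was lost without wildtype replicate 1 or knockout replicate 2. Lymphoid falls numbered 2 without knockout replicate 1 and 0 without wildtype replicate 1, wildtype replicate 2 or knockout replicate 3, and lymphoid rises 1 without each array in turn. Of the 9 mast cell and 9 lymphoid markers, 2 and 1 had a mean level at or above the median of all genes. In whole livers fewer cells of a type and less RNA per cell cannot be told apart, and the part of the shifted blood cell markers in the rise of the 5 genes was not tested.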

How the data were processed

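RNA of 6 fetal livers was hybridised to 6 one-colour Affymetrix Mouse Gene arrays. The authors deposited probe set intensities made by RMA, and the submitters' processing notes name Affymetrix Power Tools 1.8.6. For the upstream genome build, none is given in the sources used here. The method sets the arrays to a common distribution, which hides any difference in RNA content between livers. The median intensity per array was 104.5 to 109.8 on a linear scale, and log2 was taken.

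Of 34760 probe sets, the platform annotation gave 21640 a single gene, 1321 several and 11799 none. Each gene took the single-gene probe set with the highest mean over 6 arrays. The model (limma 3.58.1, R 4.3.3, lmFit and eBayes, 2-sided) had genotype as its one term and covered 19937 genes; it was tested on simulated data. Permuting 3 against 3 arrays exactly gives no p below 0.1, so single values were not tested that way. The 5 genes, the 8 related lists and the 13 marker lists were chosen with earlier results of these data known. Named genes were the 5; Klf1; all genes above 3-fold and 3 below; up to 4 called genes per related list, or the 2 of smallest p; Alg13 and Ermap; nearest and called neighbours; and the 3 genes of most similar values. Other genes of the M-band list, and Hecw2, Xdh, Alg14, Fam160a2, Hook2, Rab5a, Rab5c and Tnnt2, were named after their values were seen. So were Serpina1d, the uncalled neighbours of the chromosome 3 pair and the dim neighbours of Btn1a1.

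Settings varied were the scaling (quantile, 75th percentile, deviations of 10 housekeeping genes), a dim-gene filter, averaging of probe sets, an offset of 16, the variance model, a replicate block, the threshold and the arrays included. Promoter sequences and gene order are from RefSeq, GRCm38.p6. Same-numbered arrays did not deviate together (correlations of -0.156, -0.224 and 0.183), so the replicate numbers were not taken to pair embryos. Arrays of unlike number gave correlations from -0.165 to 0.329. With 3 arrays per group these values cannot decide which embryos shared a litter.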

Additional observations from a re-analysis of the deposited data

Results flagged for a closer look

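Outside the named genes, 4 probe sets were more than 3-fold higher in knockout livers. Of the 1321 probe sets with several genes, 2 rose by that much, the larger by 3.27 on the log2 scale, and of the 11799 with none named, 2 did, the larger by 2.46. They can be assigned to no single gene here and stayed out of the ranking of named genes.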

How the results depend on the processing

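The changes of the 5 genes kept their sign under every alternative that was run, between 1.63 and 3.24. Their median, 2.70, was 2.55 with the offset of 16 and 2.83 with array quality weights, and ran from 2.65 to 2.81 with 1 array left out. Single changes moved by more than the spread between replicates with the offset in Hecw1, Btn1a1, Glt28d2 and Fam160a1, and with 75th percentile centring in Fam160a1, to 1.75. The filter on dim genes left out Glt28d2, so the median had no value there. All genes called numbered 3809 (43.2% lower), 2083 with no moderation, 1995 at an adjusted p under 0.01 and 2409 to 3749 with 1 array left out, 2409 without knockout replicate 2 and 2414 without knockout replicate 3; centring on the 75th percentile made 55.5% of calls lower. The 19 related calls numbered 7 to 17, and the 11 neighbour calls 7 to 12, with 1 array left out, and neighbour calls numbered 3 with no moderation. With the replicate block 3498 genes were called, and the calls of Smurf2, Hook2, H4c6 and Tmem154 were lost. The labels do not say whether the numbers pair embryos. Centring on the 75th percentile lost the calls of Smurf1, Smurf2, Hook2, Ggps1, Dbt and Tmem154, and housekeeping centring those of Smurf2, Cidea, Fabp3, Hook2, Rab5a, H4c6 and Tmem154. In these tests 3 arrays per group limit the precision of small changes.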
